A study of Mus musculus with 2 samples.

Results

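Kinesins and cytoplasmic dynein are the motors that carry cargo along microtubules, and 68 of the 45578 genes in a table of ribosome footprints from mouse brain encode their subunits, light chains and the dynactin complex. The members were chosen by symbol: protein-coding genes named Kif or Kifc with a number, Klc, Dync, Dynll, Dynlt, Dynlrb or Dctn. The set holds 45 kinesin heavy and light chain genes, 16 cytoplasmic dynein genes, 6 dynactin genes and Kif1bp, a kinesin binding protein that is no motor and entered by its name. Axonemal dyneins (Dnah) and Kifap3, the non-motor subunit of kinesin-2, are not members. The 5 genes of the same naming pattern that are not protein coding were left out.

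The tissue was brain of control mice at postnatal day 5, heterozygotes of the Taiwanese line with genotype Smn+/-; SMN2tg/0 on a congenic FVB background: 1 copy of mouse Smn is lost and the human SMN2 transgene is present in every sample. There was 1 group with 2 replicates, called biological in the labels, which do not say whether each was a separate animal, so the spread between them may be technical. There was no second condition. Active ribosome profiling with RiboLace was used, in which beads bearing a puromycin analogue pull down translating ribosomes from nuclease-treated lysate, and fragments of 25 to 35 nucleotides are sequenced. No matched RNA-seq was analysed here, so more messenger RNA and more ribosomes per messenger RNA cannot be told apart in any level below.

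Kinesins are ATPases that walk along microtubules, most of them towards the plus end, which in axons points away from the cell body. Cytoplasmic dynein 1 walks to the minus end, towards the cell body, and needs dynactin and an adaptor to move far. Neurons depend on both for the supply of axons, dendrites and growth cones and for signalling back to the nucleus, and other kinesins build the spindle of dividing cells or work in cilia.

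Replicate 1 held 343552 counts at the gene level and replicate 2 held 120282, so replicate 1 was 2.86 times deeper. After scaling each library to its effective size, as described under the processing, a single count stood for 2.71 CPM (counts scaled to a common library size) in the deeper library and 8.93 CPM in the shallower one. Neuronal markers (Tubb3, Stmn2 and 8 others) were all detected, 1 of the 10 was called higher in replicate 2, and they summed to 7916 and 9037 CPM in replicates 1 and 2. Astrocyte and radial glia markers summed to 3111 and 3375 CPM, erythroid genes to 3816 and 4134, oligodendrocyte lineage markers to 707 and 813, and proliferation markers to 366 and 393. Microglial, endothelial and motile cilia markers each summed to between 59.6 and 250.03 CPM in either library, with at most 1 gene of a list at 0 in both libraries. In replicate 2 alone, Tmem212, Tekt1 and Ccdc153 of motile cilia and Aif1 and Tmem119 of microglia were also at 0. The labelled tissue thus had its defining markers, with blood in it. Smn1 had 5 and 2 counts, too few to check the genotype.

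The motor genes held 2755 counts in replicate 1 and 913 in replicate 2. Of all gene counts these were 0.802% (95% Wilson interval 0.773 to 0.832) and 0.759% (0.712 to 0.810), with a mean of 0.780% ± 0.030 (SD, n = 2). A count was seen for 62 of the 68 genes, and for 53 in both libraries. A mean of at least 10 counts over the libraries was reached by 32 genes, 30 more had between 1 and 19 counts in sum, and 6 (Klc3, Kif2b, Kif6, Kif12, Kif20b and Kifc5b) had 0 counts in both. A count of 0 allows up to 3 counts, or 8.13 CPM in replicate 1 and 26.8 CPM in replicate 2, so low expression of these 6 was not detectable at this depth. Dync1h1, Kif5c, Kif1a, Klc1 and Kif1b together held 43.8% of the motor counts in replicate 1 and 43.5% in replicate 2.

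Split by role, the heavy, intermediate and light intermediate chains of dynein 1 took the most counts. Their part of the motor counts was 20.3% (95% Wilson interval 18.8 to 21.8) in the first library and 23.0% (20.4 to 25.8) in the second. The kinesin-1 heavy chains followed with 16.7% and 16.2%, and kinesin-3 with 15.6% and 14.7%. Dynactin took 10.6% and 11.4%, dynein light chains 10.7% and 9.53%, and kinesin light chains 8.93% and 8.21%. Kinesin-2 held 6.53% and 6.24%. The 13 mitotic kinesins together took 0.690% and 1.64%. The intervals of the libraries overlapped in each of the 13 role groups, which does not show equal shares. For the mitotic kinesins the overlap was narrow (0.442 to 1.07 in replicate 1 and 0.998 to 2.69 in replicate 2).

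**Figure D1:**
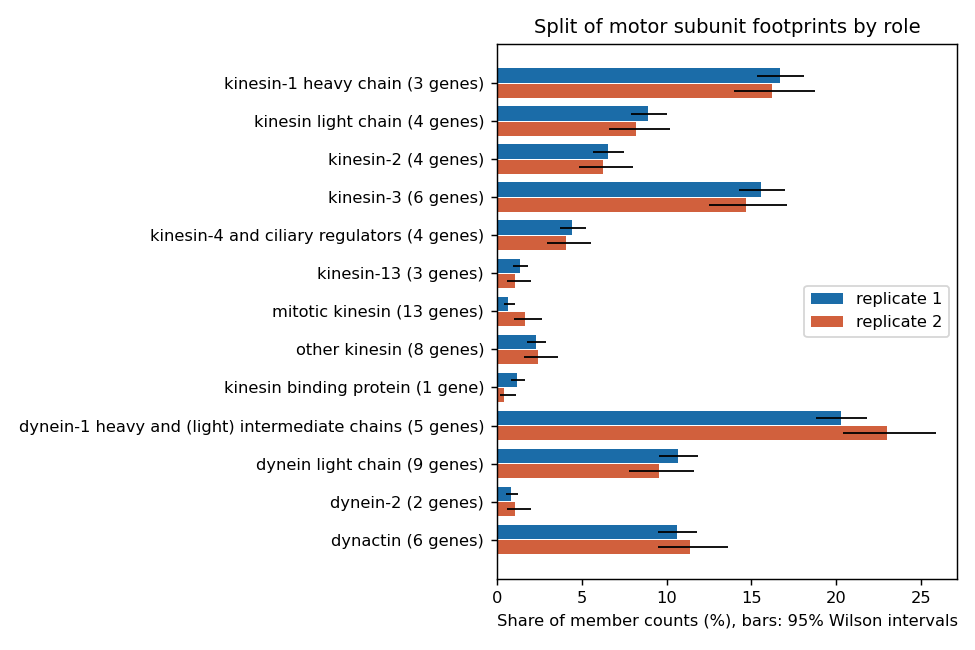
Share of the motor gene counts (percent, x axis) held by each role group (y axis) in replicate 1 and replicate 2, with 95% Wilson intervals. Dynein 1, kinesin-1 and kinesin-3 take the most counts, which are not divided by length, and mitotic kinesins take 0.690% and 1.64%.

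To compare genes of unlike length, the CPM of a gene was divided by the kilobases of its coding sequence, which gives a footprint density. Density still fell with coding length, with a Spearman rho of -0.564 over the 32 motor genes past the count minimum. Over the 4392 protein-coding genes past that minimum, rho was -0.778. In density the order was led by 3 dynein light chains, Dynll2, Dynll1 and Dynlrb1, and then by Klc1, Dctn2, Kif5c, Kif5a and Dync1li1. The other places among the 12 highest went to Dynlt1c, Dynlt1f, Dctn6 and Dynlt1a. That of Dctn6 rested on the isoform: its density of 118.4 (rank 11) became 71.2 (rank 22) on the longest coding isoform. No 2 neighbours of the 67 steps in this order had exact Poisson 95% intervals that did not overlap in both libraries. This rule is stricter than the interval of a ratio used for pairs below, so it does not show that neighbours are equal. Genes farther apart in the order were told apart by it: Klc1 lay above Kif5a, Kif5c above Kif1a, and Kif5a above Dync1h1 in both. Kif5c over Kif1a and Kif5a over Dync1h1 depended on the length used. Kif5c has 2871 coding nucleotides in a transcript of 6856 and Kif1a has 5094 in 8206. Per kilobase of whole transcript their intervals overlapped in replicate 2. Kif5a has 3084 coding nucleotides in a transcript of 6310, and per kilobase of whole transcript it no longer lay above Dync1h1. The median density of the 62 genes with a count was 39.1 CPM per kilobase, beside 14.2 over the 14480 protein-coding genes with a count. Among protein-coding genes within 1.5-fold of their coding length, Dynll2 (rank 1) lay at the 96.8 percentile and Dynlt1c (rank 9) at 72.0. Dync1h1 (rank 21) lay at the 100 percentile. How far coding length itself sets the order was not tested.

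**Figure D2:**
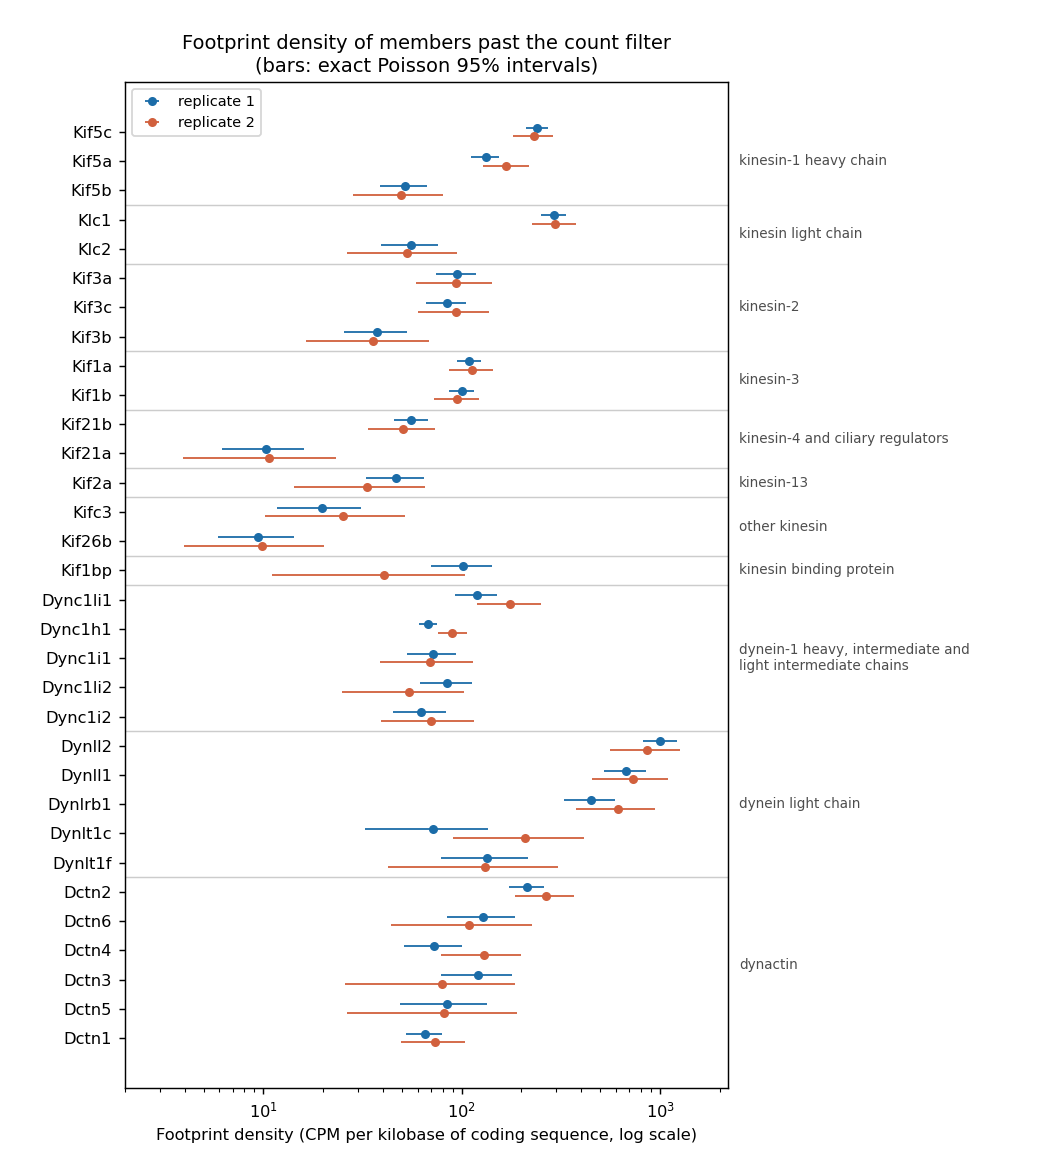
Footprint density (CPM per kilobase of coding sequence, log axis) of the 32 motor genes that averaged 10 counts or more, grouped by role. Points are the 2 replicates and bars their exact Poisson 95% intervals, and Dynll2, Dynll1 and Dynlrb1 lie farthest to the right.

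Kinesin-1 is the main carrier of vesicles, mitochondria and tubulin into axons, and its heavy chain comes from 3 genes: Kif5a and Kif5c, which are neuronal, and Kif5b, which is made in most cells. Over its 2871 coding nucleotides Kif5c (ENSMUSG00000026764) had 254 and 74 counts in replicates 1 and 2. Its density was 239.8 and 230.2 CPM per kilobase, or 235.0 ± 6.78 (SD, n = 2). Kif5a had 150 and 58 counts and a density of 149.9 ± 25.5 (SD, n = 2). Kif5b had 55 and 16 counts and a density of 50.5 ± 1.51 (SD, n = 2). The neuronal heavy chains therefore stood above the broadly expressed one in both libraries. The density of Kif5c was 4.65 times that of Kif5b in replicate 1 (exact conditional binomial 95% interval 3.46 to 6.35) and 4.66 times in replicate 2 (2.69 to 8.57). Kif5a exceeded Kif5b 2.56 times (1.87 to 3.55) and 3.40 times (1.93 to 6.34). Kif5c exceeded Kif5a 1.82 times (1.48 to 2.24) in replicate 1, but in replicate 2 the ratio of 1.37 had an interval from 0.959 to 1.97 that includes 1. The heavy chains are alike in sequence, and how fragments that match several of them were assigned is not given in the sources used here.

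Kinesin light chains bind the tails of the heavy chains and link them to cargo. Klc1 dominated the 4 genes, with 199 and 61 counts and a density of 292.8 ± 2.07 CPM per kilobase (SD, n = 2). Klc2 had 38 and 11 counts (54.3 ± 1.81), Klc4 had 9 and 3 (13.8 ± 0.912), each SD with n = 2, and Klc3 had none. The Klc1 density was 5.25 times that of Klc2 in replicate 1 (3.69 to 7.63) and 5.55 times in replicate 2 (2.90 to 11.7). Klc2 went from 54.3 to 35.2 CPM per kilobase when the longest coding isoform was taken, and the mean log2 ratio of Klc1 over Klc2 went from 2.43 to 3.25. The Klc1 density was over 20 times that of Klc4 in both libraries (22.2, interval 11.5 to 49.3, and 20.4, interval 6.67 to 102). Summed over the genes, heavy chain density was 1.18 times light chain density in replicate 1 and 1.24 times in replicate 2. These sums have no interval and were not recomputed per kilobase of whole transcript. The ratio would be lower there, since Kif5c has 2871 coding nucleotides in a transcript of 6856 and Klc1 has 1851 in 2504. The direction was therefore not settled. Heavy and light chains join in equal numbers in the kinesin-1 tetramer.

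Kinesin-2 pairs Kif3a with Kif3b or Kif3c and serves axonal cargo and the building of cilia. Kif3a had 73 and 22 counts (94.0 ± 0.464 CPM per kilobase, SD, n = 2) and Kif3c, the neuronal partner, 74 and 25 counts (88.6 ± 6.71, SD, n = 2). Kif3b, the partner used in most tissues, had 31 and 9 counts (36.6 ± 1.15, SD, n = 2). Kif3c exceeded Kif3b 2.24 times in replicate 1 (1.45 to 3.53) and 2.61 times in replicate 2 (1.18 to 6.35), while Kif3a and Kif3c were not told apart in either library (1.12, 0.803 to 1.58, and 1.00, 0.539 to 1.85). Kif3a also exceeded Kif3b, 2.52 times (1.63 to 3.97) and 2.62 times (1.16 to 6.45), a call that was lost when the longest coding isoform was taken, where the mean log2 ratio went from 1.36 to 1.09, and with the median of near-full-length isoforms, where it was 1.15. Kif17, a dendritic motor of the same family, had 2 and 1 counts.

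Kinesin-3 motors haul the precursors of synaptic vesicles and dense core vesicles. Kif1a had 204 and 64 counts and a density of 110.4 ± 2.59 CPM per kilobase (SD, n = 2), and Kif1b had 201 and 58 counts and 97.5 ± 3.47 (SD, n = 2). They were not told apart: the ratio was 1.09 in replicate 1 (0.889 to 1.33) and 1.18 in replicate 2 (0.815 to 1.71). The broadly expressed Kif1c stood at 7.34 ± 1.09 (SD, n = 2), from 8 and 3 counts. Kif13a, Kif13b and Kif16b, which act on endosomes and the plasma membrane, had between 1 and 7 counts in a library and densities of 5.21, 4.70 and 2.17. Kif1a and Kif1b ranked at the 99.1 percentile of protein-coding genes within 1.5-fold of their coding length.

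Among the kinesin-4 motors that restrain microtubule growth, Kif21b had 101 and 28 counts (53.2 ± 3.40 CPM per kilobase, SD, n = 2) and its paralog Kif21a 19 and 6 (10.5 ± 0.294, SD, n = 2). Kif21b exceeded Kif21a 5.42 times in replicate 1 (3.30 to 9.38) and 4.76 times in replicate 2 (1.93 to 14.1). Kif7, the ciliary regulator of Hedgehog signalling, had 2 and 1 counts, and Kif27 had 0 and 2. Kif2a, a kinesin-13 that shortens microtubules and prunes axon branches, had 37 and 8 counts and a density of 39.9 ± 9.48 (SD, n = 2). Of the remaining kinesins, the minus-end motor Kifc3 had 18 and 7 counts (22.5 ± 3.92) and Kif26b 22 and 7 (9.63 ± 0.322), each SD with n = 2. Kifc2, Kif19a, Kif26a and Kif9 had at most 12 counts in sum. Kif1bp, which holds some kinesins away from microtubules, had 33 and 4 counts and 70.9 ± 43.1 (SD, n = 2), on an isoform of 882 coding nucleotides. On its longest coding isoform, of 1854 nucleotides, the density was 27.8 and its rank went from 22 to 33.

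The mitotic kinesins were among the lowest in the order, at 0 to 6.43 CPM per kilobase. These 13 genes include Kif11, which slides spindle microtubules apart, Kif23 and Kif20a, which act in cytokinesis, and Kif4, Kif22, Kif2c, Kif18b and Kifc1, which act on chromosomes, spindle poles or spindle microtubules. Together they had 19 counts in replicate 1 and 15 in replicate 2, none passed a mean of 10 counts, and no gene had more than 6 counts in a library. Kif22 had 6 and 1, Kif18b 2 and 3, Kif11 1 and 4 and Kifc1 2 and 2, which is too few to compare the libraries. Their pooled density was 1.21 CPM per kilobase in replicate 1 (exact Poisson 95% interval 0.718 to 1.92) and 3.33 in replicate 2 (1.86 to 5.49), beside 140.6 and 149.4 for the kinesin-1 heavy chains. Proliferation markers were present but uneven, with Pcna at 39 and 10 counts, Mki67 at 16 and 5, Top2a at 14 and 6 and Aurkb at 0 in both. In bulk brain, fewer cells of a type and less RNA per cell cannot be told apart.

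Cytoplasmic dynein 1 is built on a very large heavy chain that holds the motor, with intermediate and light intermediate chains that bind dynactin and adaptors. With 348 and 140 counts over a coding sequence of 13935 nucleotides, Dync1h1 (ENSMUSG00000018707) was the most counted member in both libraries. Per kilobase this was 67.7 and 89.7 CPM, or 78.7 ± 15.6 (SD, n = 2). Among the 99 protein-coding genes with a count and a coding length within 1.5-fold of its own, Dync1h1 had the highest density. The intermediate chain genes were not told apart, with Dync1i1 at 51 and 15 counts (70.2 ± 1.56) and Dync1i2 at 44 and 15 (66.1 ± 5.43), each SD with n = 2. Their ratio was 1.14 in replicate 1 (0.750 to 1.75) and 0.988 in replicate 2 (0.450 to 2.17). The mean log2 ratio of 0.089 became 0.42 on the longest coding isoforms.

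Dync1li1, 1 of the light intermediate chains, which contact the adaptors, had 69 and 31 counts and a density of 147.5 ± 40.4 CPM per kilobase (SD, n = 2). It exceeded the heavy chain 1.76 times in replicate 1 (1.34 to 2.28) and 1.96 times in replicate 2 (1.29 to 2.91). Per kilobase of whole transcript that call was lost, and the mean log2 ratio went from 0.89 to 0.21. Dync1li2 had 46 and 9 counts (69.3 ± 21.2, SD, n = 2) and was not told apart from the heavy chain in either library. Per kilobase of whole transcript it was lower than the heavy chain in both, with a mean log2 ratio of -1.81 in place of -0.20, and Dync1li1 over Dync1li2 was then told apart, at 2.02 in place of 1.097. Summed over both genes of a class, the density was 1.97 and 1.55 times that of Dync1h1 for intermediate chains and 3.00 and 2.57 times for light intermediate chains in replicates 1 and 2. These sums have no interval and were not recomputed per kilobase of whole transcript. They would be lower there, since Dync1h1 has 13935 coding nucleotides in a transcript of 14342 and the other chains have longer untranslated parts for their length. In the complex, each of these chains is present in the same number as the heavy chain.

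Cytoplasmic dynein 2 drives retrograde transport inside cilia. Its heavy chain Dync2h1 had 13 and 4 counts over a coding sequence of 12921 nucleotides, a density of 2.75 ± 0.027 CPM per kilobase (SD, n = 2). Dync2li1, its light intermediate chain, had 10 and 6 counts (38.2 ± 17.7, SD, n = 2).

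Dynein light chains are small dimers at the base of the tail, and those of the Dynll class also bind many partners outside dynein. Dynll2 (ENSMUSG00000020483) and Dynll1 (ENSMUSG00000009013) each have a coding sequence of 270 nucleotides. Dynll2 had 100 and 26 counts, or 1004 and 859.9 CPM per kilobase, with a mean of 931.8 ± 102 (SD, n = 2). Dynll1 had 67 and 22 counts, or 672 and 728 CPM per kilobase, with a mean of 700.0 ± 39.0 (SD, n = 2). Dynll2 was lower and Dynll1 higher in replicate 2, and for each gene the Poisson intervals of the libraries overlapped. Dynll2 exceeded Dynll1 1.49 times in replicate 1 (1.08 to 2.07), but the interval of replicate 2 included 1 (1.18, 0.644 to 2.19). Dynlrb1, the roadblock light chain, reached 530.4 ± 118 (SD, n = 2) from 48 and 20 counts on its coding isoform Dynlrb1-001. Dynlrb1 stood at 372.6 on its longest coding isoform, Dynlrb1-003, and kept rank 3. Its paralog Dynlrb2, known from motile cilia, had 3 and 0 counts. Among protein-coding genes within 1.5-fold of their coding length, Dynll2 ranked at the 96.8 percentile, Dynll1 at 94.3 and Dynlrb1 at 90.4.

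The Dynlt1 light chains come from 4 near-identical gene copies, Dynlt1a, Dynlt1b, Dynlt1c and Dynlt1f, each with a coding sequence of 342 nucleotides. On their coding isoforms they had 13, 12, 9 and 17 counts in replicate 1 and 5, 5, 8 and 5 in replicate 2, and the processed pseudogene Dynlt1-ps1 had 10 and 6. How fragments that match several copies were assigned is not given in the sources used here, so no copy can be ranked above another, and their places among the 12 highest are uncertain. The related Dynlt3 had 6 and 2 counts, a density of 48.6 ± 3.22 CPM per kilobase (SD, n = 2).

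Dynactin activates dynein and tethers it to microtubules and cargo. Dctn1, the long arm that binds dynein and the microtubule, had 91 and 31 counts over 3795 coding nucleotides and a density of 69.0 ± 5.63 CPM per kilobase (SD, n = 2). Dctn2, or dynamitin, part of the shoulder that joins the arm to the filament, had 95 and 36 counts and 239.4 ± 37.4 (SD, n = 2). Dctn2 exceeded Dctn1 3.28 times in replicate 1 (2.43 to 4.42) and 3.65 times in replicate 2 (2.19 to 6.09). More copies of dynamitin than of the arm subunit sit in each complex, and whether this bears on the ratio was not tested. Dctn3, the third shoulder subunit, and the pointed-end subunits Dctn4, Dctn5 and Dctn6 had densities of 100.2 ± 29.1, 100.8 ± 40.0, 82.6 ± 1.83 and 118.4 ± 13.2 (each SD, n = 2). None of these 4 was told apart from Dctn1 in both libraries, although Dctn3 and Dctn6 were in replicate 1 alone. All 6 genes passed a mean of 10 counts.

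The filament of dynactin is made of proteins with other symbols, and each of the 6 genes listed for it passed the same minimum. Actr1a, the actin-related protein of which the filament is built, had 115 and 25 counts and a density of 236.5 ± 55.3 CPM per kilobase (SD, n = 2). The capping protein subunits Capzb and Capza2, which also cap ordinary actin filaments, stood at 137.9 ± 71.7 and 136.0 ± 27.7 (each SD, n = 2). None of the 6 was called between the libraries, and their median log2 ratio, replicate 2 over replicate 1, was -0.30.

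Of 30 adaptors and regulators of the motors, all had a count and 12 passed the minimum. Pafah1b1, the lissencephaly protein that activates dynein, had 110 and 40 counts and a density of 262.1 ± 28.8 CPM per kilobase (SD, n = 2). Clstn1, which links kinesin-1 to vesicles, reached 226.1 ± 46.4 and Fez1, another kinesin-1 adaptor, 152.4 ± 12.02 (each SD, n = 2). Kifap3, the partner of the Kif3 motors, had 143 and 36 counts. None of the 12 was called between the libraries, and their median log2 ratio was -0.24. Of 17 axonemal dynein genes, 15 had a count and none passed the minimum. The highest of these were the small chains Dnal4 (10 and 3 counts) and Dnal1 (8 and 2), while each Dnah heavy chain had at most 6 counts in a library.

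Within families and complexes, 23 ratios of density were compared, and 9 excluded 1 in the same direction in both libraries. These were Kif5c and Kif5a over Kif5b, Klc1 over Klc2 and Klc4, Kif3a and Kif3c over Kif3b, Kif21b over Kif21a, Dync1li1 over Dync1h1, and Dctn2 over Dctn1. The intervals cover counting error alone, and an interval that includes 1 does not show equal density.

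**Figure D3:**
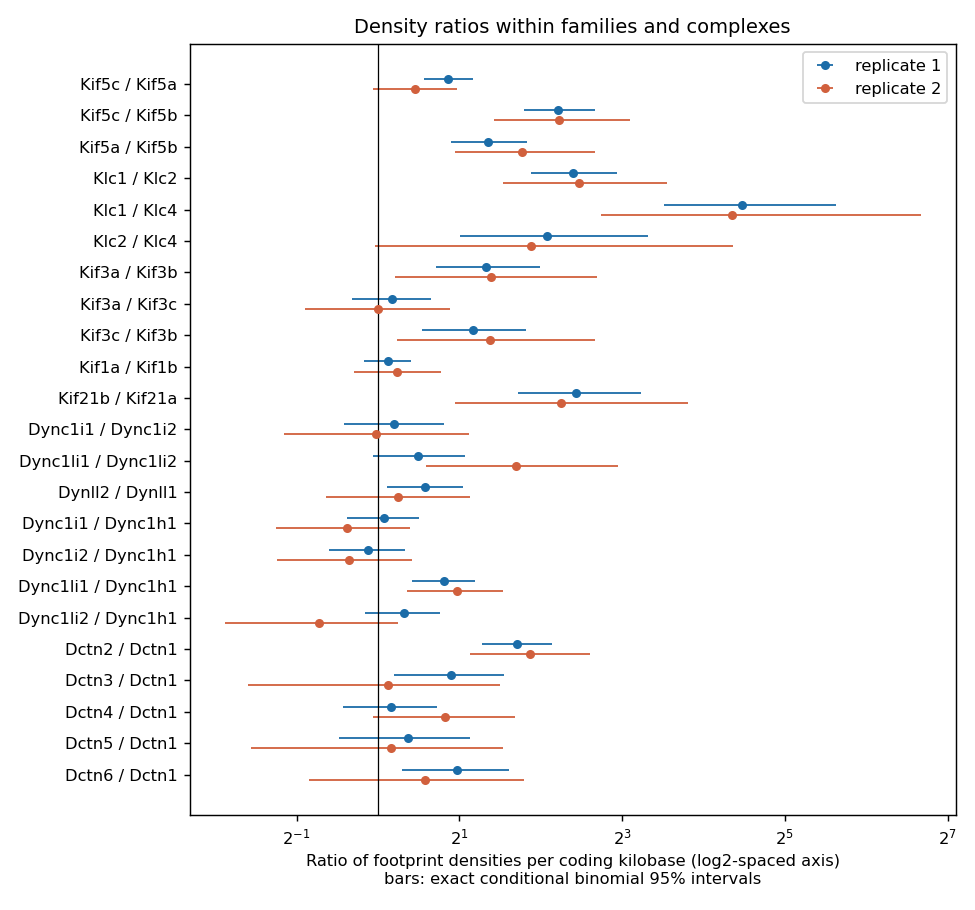
Ratio of footprint densities per coding kilobase (x axis, spaced by log2) for 23 pairs of motor genes in replicate 1 and replicate 2, with exact conditional binomial 95% intervals. The vertical line marks equal density, and the Klc1 over Klc4 ratios (22.2 and 20.4) lie farthest from it.

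The order depended on the length used, because counts were given per whole transcript and genes differ in their untranslated regions. Dynll2 has 270 coding nucleotides in a transcript of 2476. Per kilobase of whole transcript its density was 101.6 CPM and its rank went from 1 to 4, while Dynll1 went from rank 2 to 6, at 93.1. Dynlrb1 (225.6) and Klc1 (216.5) then led the order. The value of Dynlrb1 is that of Dynlrb1-001, with 48 and 20 counts in a transcript of 684 nucleotides. Dynlrb1-003 had 45 and 12 counts in 788 nucleotides, and the order per whole transcript was not recomputed on it. Dync1h1, whose transcript is nearly all coding, moved little, from 78.7 to 76.5, and its rank rose from 21 to 9. The table has no counts per region, so the part of the light chain counts that lies outside the coding sequence was not tested. Kif3c, with a transcript of 6849 nucleotides, fell to 30.9 per kilobase of transcript, and Kif3a was then told apart from it in both libraries.

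**Figure D4:**
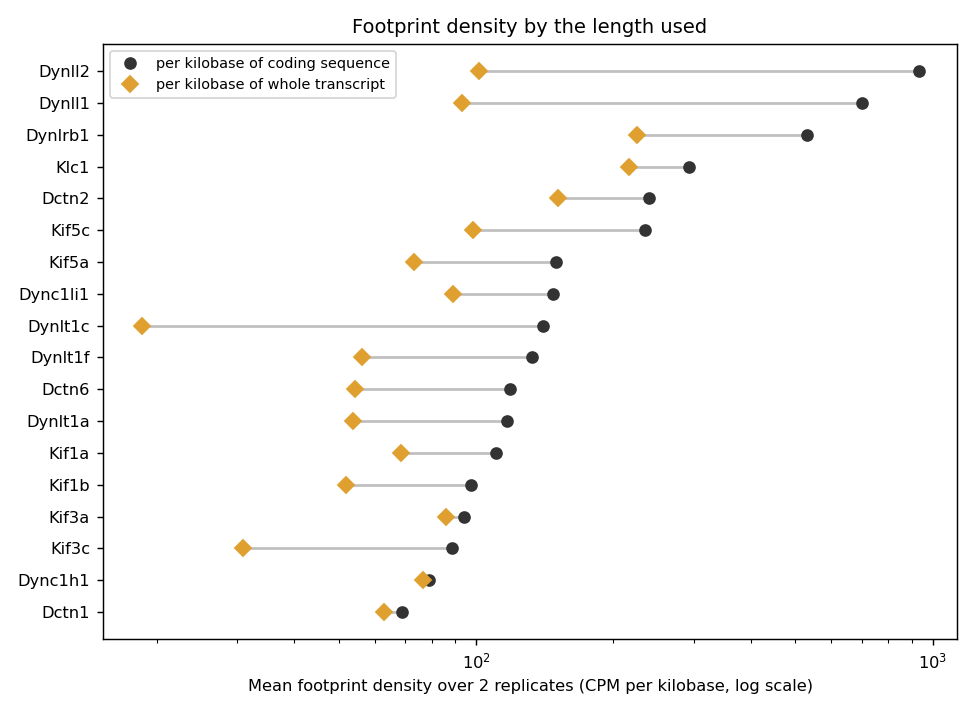
Mean footprint density over 2 replicates (CPM per kilobase, log axis) of the 12 highest motor genes and 6 others, per kilobase of coding sequence (circles) and of whole transcript (diamonds). The points of Dynll2 lie at 931.8 and 101.6, those of Dync1h1 at 78.7 and 76.5.

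Isoforms of a gene bore on some levels. Dynll2 has 3 isoforms with the same coding and 3' untranslated lengths (270 and 1908 nucleotides) that differ in the 5' untranslated region. Dynll2-001, with 298 nucleotides there, had 100 and 26 counts, Dynll2-201, with 265, had 73 and 17, and Dynll2-202, with 9, had 70 and 14. With the median of these isoforms, Dynll2 stood at 671.8 and Dynll1 at 686.3 CPM per kilobase, so their order turned. Kif1b has long isoforms, of which Kif1b-001 (5451 coding nucleotides) had 201 and 58 counts, and the short Kif1b-007 (3453 coding nucleotides), which had 73 and 15. The isoforms share the motor domain and differ in the tail that selects cargo, and how fragments of the shared part were assigned is not given in the sources used here. If they were split, a level taken on 1 isoform understates the gene, more so for a gene with many isoforms. The 4 longer coding isoforms of Klc1, which differ at the carboxy terminus, had 154 to 199 counts in replicate 1 and 44 to 61 in replicate 2. For Kif21b the most counted transcript was annotated as subject to nonsense-mediated decay (101 and 28 counts), with nearly the same counts on the coding Kif21b-002 (96 and 30).

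Between the libraries, 0 of the 32 motor genes that passed the minimum were called by the exact binomial test at a Benjamini-Hochberg adjusted p under 0.05, against 4.14% of all 5436 genes tested and 0.956% of the 4392 protein-coding genes among them. The test compares these libraries, not conditions. At an unadjusted p under 0.05 there were 2 of the 32, Dync1h1 and Dctn4, or 6.25%, beside 9.6% of all genes tested. With edgeR's exact test at a preset biological coefficient of variation of 0.2, 0 were called and 0 had an unadjusted p under 0.05. The log2 ratio of replicate 2 over replicate 1 was above 0 for 15 genes and below 0 for 17, with a median of -0.027 beside 0.0041 over all genes tested. Across the 32 genes, which are not independent replicates, the CPM of the libraries had a Spearman rho of 0.956, beside 0.787 over all tested protein-coding genes. The sets were not matched for level. A mean of at least 50 counts was reached by 11 of the 32, beside 764 of all 5436 genes tested, so the 2 values cannot be compared directly.

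Single members stayed within these bounds. Dync1h1 stood at 943 and 1250.2 CPM, and its log2 ratio of 0.41 (counting SE 0.14) gave the smallest adjusted exact binomial p of a member, 0.129. The highest ratios were those of Dctn4, at 0.83 (counting SE 0.40, adjusted exact binomial p = 0.462), and Dync1li1, at 0.56 (SE 0.31, p = 0.639 after adjustment). The lowest were those of Kif1bp, with 33 and 4 counts, at -1.30 (SE 0.74, adjusted exact binomial p = 0.655), and of Dync1li2, at -0.63 (SE 0.52). The density ratio of Dync1li1 over Dync1li2 was 1.41 (0.958 to 2.10) in the first library and 3.24 (1.51 to 7.74) in the second, with intervals that overlap.

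**Figure D5:**
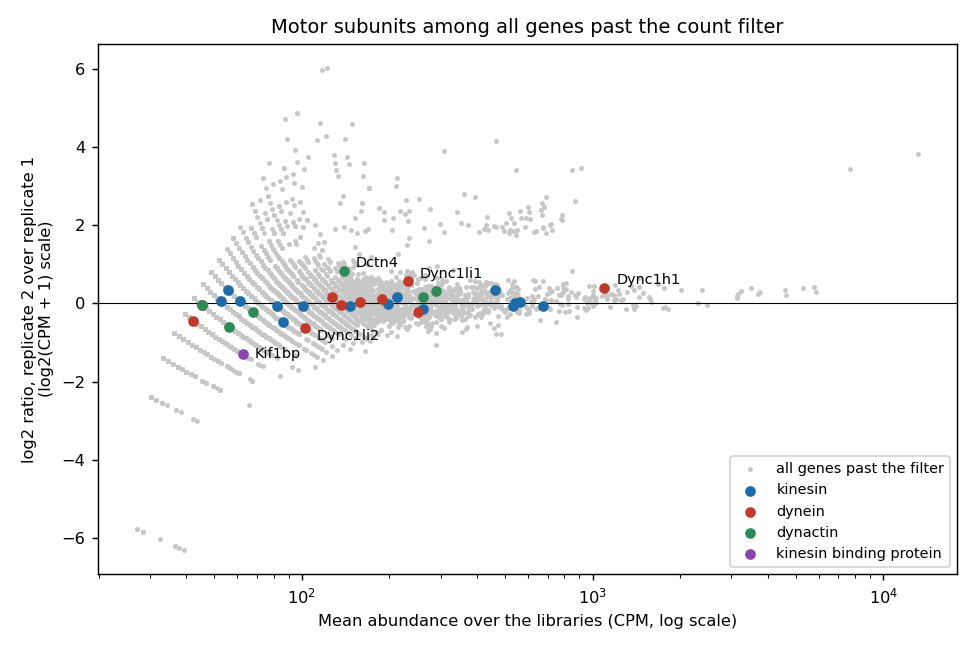
Difference in log2(CPM + 1), replicate 2 minus replicate 1, against mean CPM (log axis) for the 5436 genes that averaged 10 counts or more (grey) and the 32 motor genes among them (coloured by class). The motor genes lie between -1.30 (Kif1bp) and 0.83 (Dctn4).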

How the data were processed

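The authors deposited whole-number counts of footprints per transcript, not normalised, for 2 libraries of 1 group, with lengths in nucleotides of each transcript and its regions, per the file headers. Trimmomatic 0.36, Bowtie2 2.2.6, SAMtools and the build GRCm38.p4 are named in the submitters' processing notes. The counting tool and the annotation release are not given in the sources used here. No protein or transcript sequences were used.

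Isoforms share sequence, so counts of a gene's transcripts were not added: each gene took its transcript with the highest summed count (the longer in a tie), and for density the highest with a coding sequence, which differed for Dynlrb1, Dynlt1c, Kif12 and Kif18a. How shared fragments were assigned is not given. For pairs of isoforms within 2% in both lengths, the squared difference over the sum was taken. Its average is 0 for fully shared and about 1 for independent counts, a scale that does not hold for its median. It averaged 0.397 in replicate 1 (610 pairs, median 0.154) and 0.454 in replicate 2 (162 pairs, median 0.182). Over members the averages were 0.863 (7 pairs, median 0.127) and 0.899 (5 pairs, median 0.615), too few to tell.

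CPM used effective library sizes from TMM in edgeR 4.0.16 (R 4.3.3) over the genes that averaged 10 counts or more. Log2 ratios add a pseudocount of 1 CPM and have counting standard errors. Each gene past the minimum had a 2-sided exact binomial test (scipy 1.17.1), adjusted over all 5436. Shares have 95% Wilson intervals, densities exact Poisson and ratios exact conditional binomial intervals. All cover counting error only, since reads copied by PCR, with no molecular identifiers, do not each stand for a molecule. A pair of genes was called apart in density only where both libraries showed it. All 68 members matched the name table with the same symbol.

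Members, roles and lists were chosen with earlier results of these data known. Genes named singly were the 12 highest in density, the highest of each role, those in the ratios, those at 0, the extremes of the log2 ratio and the 3 highest of each pathway list; others are named as members of a role. Kifap3, Smn1, Dynlt1-ps1 and single cell type markers lie outside this rule and were chosen after their values were seen.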

Additional observations from a re-analysis of the deposited data

How the results depend on the processing

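No paired analysis was possible because all samples belong to a single group. Calls between the libraries and the median log2 ratio need both libraries and were not recomputed without one of them. No motor gene was called under TMM, DESeq2 size factors, library totals, other count minimums, coding genes alone, the preset coefficient of variation or the longest coding isoform. Library totals moved the median log2 ratio of the members to -0.23, but also that of all genes to -0.20. The 32 members past the minimum became 53 with at least 1 count in each library, 11 with a mean of at least 50, and 20 or 37 with one replicate left out. The share of 0.780% became 0.999% with isoforms summed and 1.01% of coding counts alone; it was 0.759% to 0.802% without a replicate. The kinesin-1 share of 16.4% became 17.0% on the longest coding isoform and 17.6% with the median of near-full-length coding isoforms, an alternative chosen after seeing the data, which gave 7.26% in place of 8.57% for kinesin light chains.
Of the 23 density ratios, 9 were told apart in both libraries, 8 with the longest coding isoform, 8 with the median isoform, 11 per whole transcript, and 10 to 14 when one replicate was left out, which asks it of 1 library alone. Some ratios that were not told apart changed direction. On the log2 scale, Kif3a over Kif3c became -0.18 with the longest coding isoform and -0.12 with the median isoform, which also gave -0.066 for Dynll2 over Dynll1. Per kilobase of whole transcript, Dctn3, Dctn4, Dctn5 and Dctn6 over Dctn1 became -0.15, -0.80, -1.08 and -0.21. Without one replicate, Dync1i1 over Dync1i2 ranged from -0.018 to 0.195, Dync1i1 over Dync1h1 from -0.38 to 0.076 and Dync1li2 over Dync1h1 from -0.72 to 0.32. The causes were not tested, apart from what the lengths and isoforms themselves change. Replicate 2 had 913 motor counts, which limits every ratio that rests on under 10 counts there.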
